A study of Mus musculus with 6 samples.

Results

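The 9 genes described here encode the kinase JAK1 (Jak1), 6 STAT transcription factors (Stat2, Stat3, Stat4, Stat5a, Stat5b and Stat6) and the feedback inhibitors SOCS3 and CIS (Socs3 and Cish). They were picked by gene symbol, with earlier results of these data known, out of the 38739 genes of an expression table from mouse neutrophils. Each of the 9 had a value other than 0 somewhere and was among the 23049 genes tested. RNA was sequenced from peritoneal neutrophils of cGAS knockout (cGAS-/-) mice on the strain labelled C57B/L6, with 3 samples given media control (untreated) and 3 given 500 ng/mL of lipopolysaccharide (LPS) of E. coli, each for 2 h. LPS is a cell wall component of Gram-negative bacteria that is sensed through TLR4. Both groups lack cGAS, a cytosolic DNA sensor, and no wild-type sample was analysed here, so the comparison asks what LPS did in cells without cGAS. The methods of the study describe male 8-week-old mice whose neutrophils were lavaged from the peritoneum 2 h after thioglycolate, and they give a lower LPS dose for the sequencing than the sample labels do. Neither source says whether the 3 samples of a group came from separate animals or cultures, and the p-values measure only the spread between these samples, which may be technical.

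Cytokine receptors without a kinase of their own signal through JAKs, which phosphorylate the receptor tail once the ligand has bound. STAT proteins dock there, are phosphorylated, pair up and move to the nucleus, where most of the pairs bind a short palindrome called the gamma-activated sequence (GAS). SOCS3 and CIS are transcribed in response and bind to receptors or JAKs to end the signal. In neutrophils, G-CSF and IL-10 act largely through STAT3, GM-CSF through STAT5, and SOCS3 is a main brake on G-CSF signalling.

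Of the 9 genes, Stat5a was the only gene with a higher level after LPS at an adjusted p under 0.05 in limma, with a mean 4.76 times that of the untreated samples, and this call was lost when any 1 sample was left out. Jak1 and Cish lay higher in all 3 LPS samples than in any untreated sample, and Socs3 had a mean 3.64 times as high, but none of these 3 passed the adjusted limit. Stat2, Stat3, Stat4, Stat5b and Stat6 overlapped between the groups. By the limits in the methods of the study, a limma p under 0.01 with a log2 fold change beyond 2, 0 of the 9 genes were higher and 0 were lower, where 1.69% and 1.31% of all genes were. The study applied its limits to read counts with edgeR and limma-voom. Here they were applied to log2(value + 1) of the deposited values, so these calls are not those of the study. At an adjusted p under 0.05, 1 of 9 was higher and 0 were lower, beside 0.894% and 0.946% of all genes. These shares include many genes of very low level. With only the 9403 genes with a mean value of at least 1 fitted, 406 were higher and 308 lower by the limits of the study. At the adjusted limit 557 and 483 were, with the same calls for the 9 genes. At an unadjusted p under 0.05 the limma test gave 2 of 9 higher (Stat5a and Jak1) and 0 lower, beside 10.3% and 6.66% of all genes. For 3 of 9 genes every LPS value exceeded every untreated value, and for 0 the reverse held, beside 13.1% and 9.75% of all genes.

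The deposited table is titled as normalized counts, but its values were not whole reads and were taken, from their digits, as TPM (a measure of transcript abundance per length) averaged across the transcripts belonging to a gene and rescaled in each sample. This unit, here called scaled TPM, is an inference that rests on a check of 1 sample, levels and ratios between genes depend on it, and the number of reads is unknown. Protein-coding genes made up 21.6% to 29.0% of an untreated sample and 50.6% to 60.0% of an LPS sample by summed value, and pseudogenes 64.7% to 70.7% and 32.3% to 40.5%. The median log2 fold change of the 6004 protein-coding genes with a mean of at least 1 was accordingly 0.37, against 0.28 for the 9 genes and 0.013 for all genes tested. Scaling the protein-coding genes of every sample to a common total brought that median to 0.019, and turned the calls over all genes from 389 higher and 301 lower to 221 and 516. Log2 values correlated at 0.807 to 0.835 among untreated, 0.927 to 0.962 among LPS and 0.774 to 0.801 between untreated and LPS samples. Of the neutrophil markers, 12 of 14 were in the table and 11 were above 0, led by S100a8 and S100a9, while Elane, a granule protease gene, was at 0 in all 6 samples. Cgas, the deleted gene, was listed at 0.0286 to 0.307 scaled TPM, with no wild-type level to set it against.

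Markers of other cells were present too. The summed level of 9 macrophage markers was 168 to 203 in untreated and 274 to 418 in LPS samples, mostly Cd68, and that of 4 monocyte markers was 7.18 to 18.1 and 2.34 to 7.05. The other sums overlapped between the groups, at 281 to 1093 and 262 to 796 for 6 B cell markers, 16.3 to 1708 and 90.1 to 2546 for 3 erythroid, 15.2 to 37.6 and 36.4 to 68.5 for 7 dendritic cell, and 16.2 to 21.1 and 8.04 to 23.4 for 8 T cell markers. They were 4.69 to 40.8 and 5.05 to 49.1 for 3 mast cell, 1.18 to 7.92 and 1.25 to 1.87 for 5 NK cell, 3.10 to 8.52 and 2.02 to 5.31 for 5 eosinophil (Epx at 0 throughout), and 0.0422 to 0.553 and 0.239 to 0.603 for 3 mesothelial markers. The part of these cells in the results below was not tested, and in bulk RNA fewer cells of a type and less RNA per cell cannot be told apart.

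Jak1, the kinase shared by the receptors for interferons, the IL-6 and IL-10 families and the common gamma chain cytokines, lies on chromosome 4 from 101008838 to 101122487 (GRCm39, as for all positions below unless stated; minus strand). Its level was 15.7, 19.7 and 29.6 scaled TPM without LPS and 35.6, 42.3 and 36.6 with LPS. Every LPS sample was above every untreated sample, and the LPS samples lay close together. The means were 21.7 ± 7.14 and 38.1 ± 3.61 (SD, n = 3), and the log2 fold change was 0.83 ± 0.33 (SE) with a limma p of 0.0434 and an adjusted p of 0.273. With the protein-coding genes at a common total the log2 fold change was 0.36 and the groups overlapped, at 20.1 to 40.1 and 29.8 to 34.9. Raver2 overlaps Jak1 on the opposite strand and shares 16.3% of the 31-base words of its transcripts. The libraries were strand-specific by the labels, but the strand setting of the quantification is not given in the sources used here, so reads of this overlap may not be told apart.

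Stat5a and Stat5b encode close relatives that carry signals of GM-CSF, IL-2, IL-3 and growth hormone. They lie 8587 bases apart on chromosome 11, Stat5a from 100750177 to 100776065 on the plus strand and Stat5b from 100671556 to 100741589 on the minus strand (GRCm39). Stat5a was at 4.49, 3.07 and 4.10 scaled TPM in untreated cells and reached 15.5, 17.1 and 23.0 after LPS. The groups were far apart, the lowest LPS sample standing well above the highest untreated sample. The means were 3.89 ± 0.736 and 18.5 ± 3.92 (SD, n = 3), and Stat5a rose by 1.99 ± 0.31 (SE) on the log2(value + 1) scale, with a 95% interval of 1.25 to 2.74, a limma p of 5.86e-04 and an adjusted p of 0.041. This lay just under the fold limit of 2 in the methods of the study, which was passed without untreated replicate 1 or 3 or without LPS replicate 1 or 2. With any 1 of the 6 samples left out the log2 fold change was 1.83 to 2.10 and the adjusted p 0.0555 to 0.121, so the call at the adjusted limit was lost in each of these 6 fits. With the protein-coding genes at a common total the log2 fold change was 1.56 (adjusted p = 0.109 in limma), and the groups still did not overlap, at 3.17 to 5.75 and 12.1 to 21.9.

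For Stat5b the level was 11.6, 13.8 and 7.86 scaled TPM without LPS and 10.0, 16.5 and 14.3 with LPS. The groups overlapped, with an LPS sample among the lower values. Its log2 fold change was 0.28 ± 0.35 (SE) with a 95% interval of -0.56 to 1.13 and an adjusted limma p of 0.668, and it was -0.17 with the protein-coding genes at a common total. The gene pair shares 9.79% of the 31-base words of the Stat5a transcripts and 10.9% of those of Stat5b, so a part of the reads could be split between them. With all other genes Stat5a shares 16.2% of its words. Of its words, 4.83% also occur in Gm72578, a long noncoding RNA that overlaps Stat5a on the opposite strand.

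**Figure D1:**
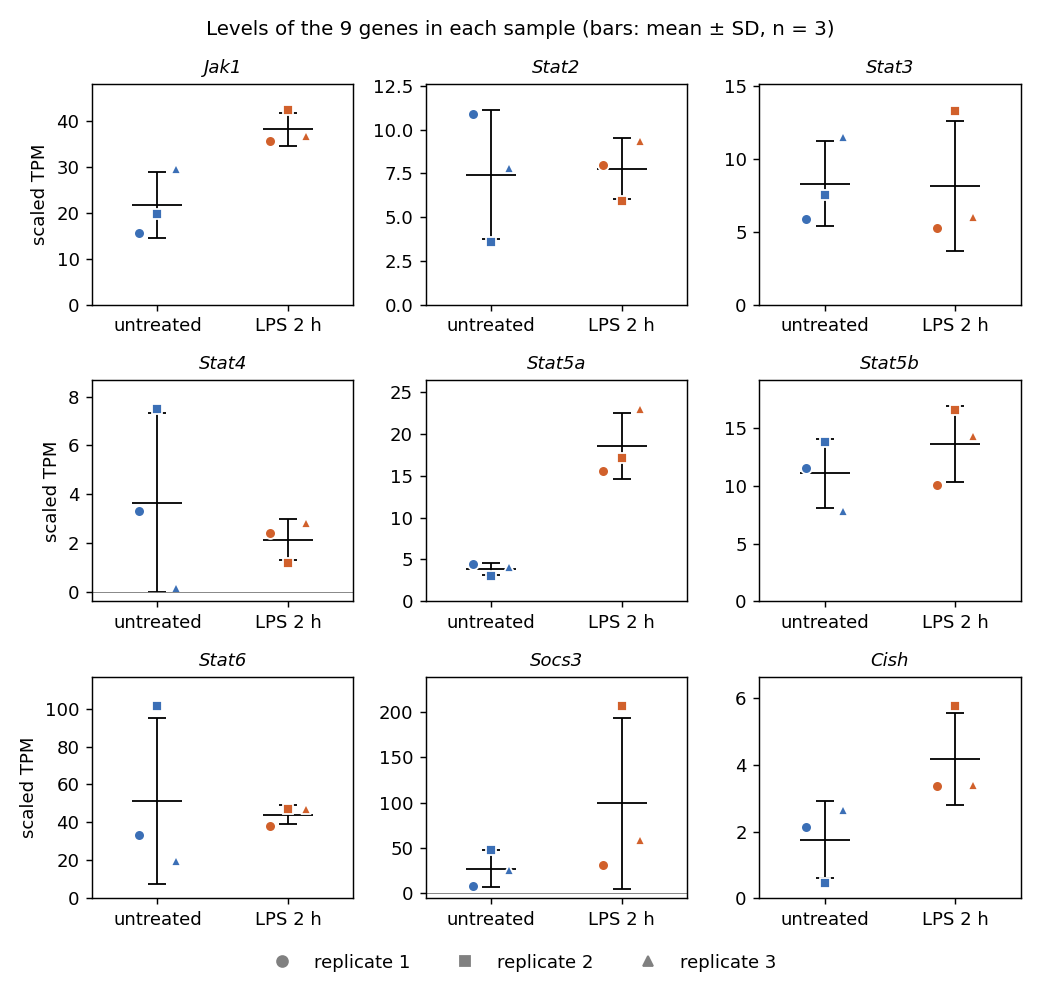
Levels of the 9 genes in scaled TPM (linear axes, a separate scale for each gene) in 3 untreated and 3 LPS samples, where points are samples, shapes are replicate numbers, and bars are the mean ± SD. The LPS samples lie above all untreated samples for Jak1, Stat5a and Cish, and Stat5a at 15.5 to 23.0 against 3.07 to 4.49 stands furthest apart.

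A ratio of 2 genes within a sample does not depend on how the sample was scaled. The ratio of Stat5a to Stat5b was 0.389, 0.222 and 0.522 in untreated cells and 1.55, 1.03 and 1.60 after LPS. Stat5b thus had the higher deposited value in every untreated sample and Stat5a in every LPS sample. The log2 ratio differed by 1.94, with a two-sided exact permutation p of 0.1, the smallest that 3 against 3 samples allow, and 0.2 after adjustment over the 10 ratios computed, which were chosen after the values had been seen. The ratio of Stat5a to Jak1 ranged from 0.139 to 0.286 without LPS and from 0.404 to 0.627 with it. The ratios of Stat5a to Stat2, Stat3 and Stat6 did not overlap between the groups either, with log2 differences of 2.07, 2.35 and 2.13, whereas those to Stat4, Socs3 and Cish overlapped. The ratio of Jak1 to Stat5b overlapped as well, at 1.36 to 3.76 and 2.56 to 3.54.

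**Figure D2:**
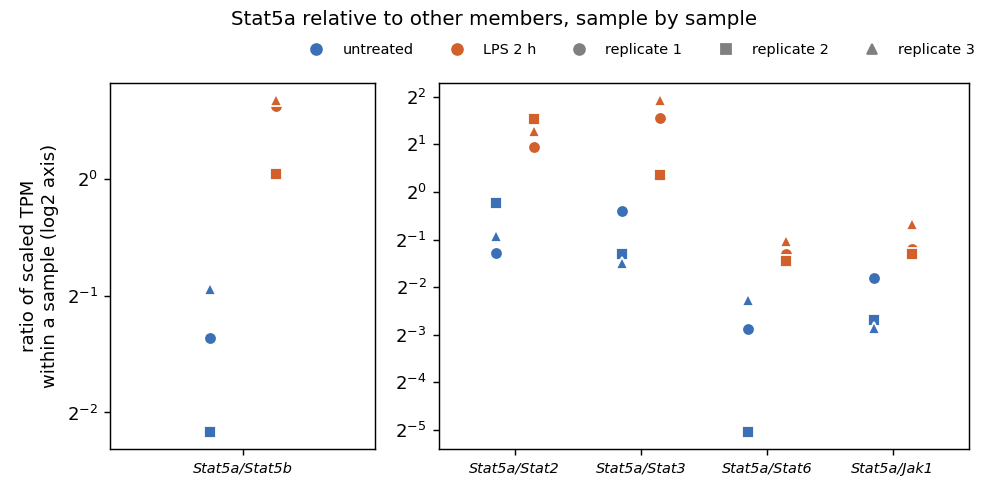
Ratio of the scaled TPM of Stat5a to that of Stat5b (left) and of Stat2, Stat3, Stat6 and Jak1 (right) within each sample on log2 axes, where points are samples, colours are groups and shapes are replicate numbers. The ratio to Stat5b was 0.222 to 0.522 in the 3 untreated and 1.03 to 1.60 in the 3 LPS samples.

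Stat3, the factor used by the receptors for IL-6, IL-10 and G-CSF, is on the minus strand of chromosome 11 from 100775924 to 100830450 (GRCm39) and overlaps the end of Stat5a by 142 bases. It stood at 5.90, 7.53 and 11.5 scaled TPM without LPS and at 5.25, 13.3 and 5.99 with it. The highest and the lowest of the 6 values were both LPS samples. The log2 fold change was -0.08 ± 0.45 (SE), with a 95% interval of -1.17 to 1.01 and an adjusted limma p of 0.936. Changes of either sign within this interval, which is on the log2(value + 1) scale, are not excluded.

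Stat2, part of the factor that type I interferon activates, lies on chromosome 10 (128106352 to 128128735, plus strand). Its values were 10.9, 3.59 and 7.83 scaled TPM without LPS and 8.01, 5.94 and 9.38 with it. All 3 LPS samples fell within the untreated range. The log2 fold change was 0.14 ± 0.44 (SE; limma, adjusted p = 0.874), and it turned to -0.29 with the protein-coding genes at a common total.

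Stat6, which carries signals of IL-4 and IL-13, lies on the same chromosome (127477821 to 127496862, plus strand). It had the highest untreated mean of the 9 genes, 51.4 ± 43.8 scaled TPM (SD, n = 3), made of 33.2, 101 and 19.6 in untreated cells, against 38.3, 46.9 and 47.1 in the LPS samples. The untreated samples covered a 5.16-fold range and enclosed the LPS samples, which differed by 1.23-fold. The log2 fold change was 0.11 ± 0.61 (SE; limma, adjusted p = 0.936) and turned to -0.37 with the protein-coding genes at a common total.

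Stat4, which acts downstream of IL-12 and is best known from T and NK cells, lies on chromosome 1 (52026307 to 52151423, plus strand). Its values were 3.30, 7.51 and 0.179 scaled TPM in untreated and 2.42, 1.19 and 2.83 in LPS-treated cells. The untreated samples covered a 41.9-fold range, with the LPS samples inside it. The log2 fold change was -0.20 ± 0.76 (SE), its 95% interval of -2.04 to 1.65 was the second widest of the 9 genes, and the adjusted limma p was 0.901. Lowly expressed as it was, Stat4 also shares 39.4% of its 31-base words with other annotated genes, mostly the long noncoding RNAs Gm31812 and Gm28177 that overlap it.

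Socs3, the inhibitor that binds JAKs and the receptors for G-CSF and IL-6, lies on chromosome 11 (117856905 to 117860898, minus strand). Its level was 8.06, 48.0 and 25.5 scaled TPM without LPS and 31.4, 207 and 58.7 with LPS. Replicate 2 was the highest in each group, and the untreated replicate 2 was above the LPS replicate 1, so the groups overlapped. The means were 27.2 ± 20.0 and 99.0 ± 94.3 (SD, n = 3), and the log2 fold change was 1.70 ± 0.89 (SE), with a 95% interval of -0.48 to 3.88, a limma p of 0.106 and an adjusted p of 0.394. Without the LPS replicate 2 the log2 fold change was 0.95. Socs3 shares 8.89% of its 31-base words with Gm57366 and Gm73339, long noncoding RNAs that overlap it on the opposite strand. The summed level of the neutrophil markers, mostly S100a8 and S100a9, was 9821, 28280 and 9581 without LPS and 18160, 54500 and 15990 with it. It was thus also highest in replicate 2 of each group, and summed B cell markers were lowest there, at 281 and 262. Most single neutrophil markers were highest there too, but Csf3r, Ltf and Camp were not in the untreated group, nor Ltf and Mpo in the LPS group. Nor did the single markers all move with LPS as their sum did. S100a8 was at 2086 to 8405 scaled TPM without and 5536 to 19850 with LPS, and S100a9 at 5233 to 16150 and 8899 to 28390. Cxcr2 was at 39.4 to 120 and 7.10 to 23.6, and Csf3r at 251 to 525 and 138 to 233, both lower in every LPS sample. The part of these markers in the spread of Socs3 was not tested.

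Cish, which encodes CIS and is induced by STAT5, lies on chromosome 9 (107173225 to 107179983, plus strand). Its values were 2.15, 0.451 and 2.65 scaled TPM without LPS and 3.35, 5.77 and 3.38 with it. No LPS value was as low as any untreated value, although replicate 2 was the lowest untreated and the highest LPS sample. The means were 1.75 ± 1.16 and 4.17 ± 1.39 (SD, n = 3), a ratio of 2.38, and the log2 fold change was 0.98 ± 0.46 (SE) with a limma p of 0.0761 and an adjusted p of 0.342. With the protein-coding genes at a common total the log2 fold change was 0.61 and the groups overlapped, at 0.465 to 3.60 and 3.21 to 4.07. Cish shares 23.8% of its 31-base words with other genes, mainly long noncoding RNAs on the opposite strand such as Gm67592.

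**Figure D3:**
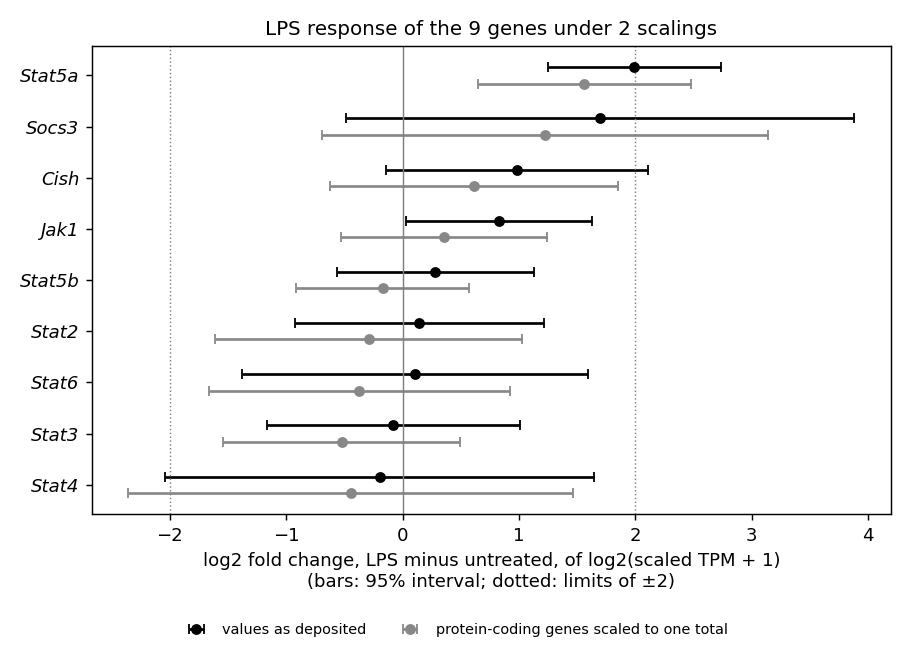
Log2 fold change (LPS minus untreated, of log2(scaled TPM + 1)) of the 9 genes with its 95% interval from limma, for the values as deposited (black) and with the protein-coding genes of each sample at a common total (grey), with dotted lines at the limits of 2 in either direction. The interval of Stat5a, 1.25 to 2.74 as deposited, excludes 0 under both scalings, that of Jak1 only as deposited, and the estimates of Stat2, Stat5b and Stat6 change sign.

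Because STAT pairs bind the GAS palindrome, the promoters of the 9 genes were searched for TTCNNNGAA, which reads alike on both strands. RefSeq promoters (GRCm38.p6, 250 bases before to 50 bases after the start of a gene) were found for 9 of 9 genes, with 12 entries. The motif occurred in 2 of the 12 entries, those of the inhibitors Socs3 and Cish, and in 0 of the kinase and STAT genes, beside 8.3% of 32851 promoters. These stretches are shown because they hold the only matches, in capitals, written 5′ to 3′ along the gene, for Socs3 at chr11:117969502-117969530 (minus strand) and for Cish at chr9:107296659-107296678 (plus strand).
Socs3: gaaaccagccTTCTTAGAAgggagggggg
Cish: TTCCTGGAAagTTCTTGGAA
The match in Socs3 lies at -154 to -146 relative to the start in the RefSeq entry. Of the 8 Socs3 transcripts in GENCODE M39, 1 contains the stretch shown in an exon and 0 contain the last 30 bases of the searched window unbroken, so its place before the start holds for the RefSeq entry and not for every transcript. The 2 matches in Cish lie side by side after the start in the RefSeq entry, at 1 to 9 and 12 to 20 relative to it. They are contained in 2 of 5 GENCODE transcripts, and 0.457% of all promoters hold 2 or more matches. A match of these letters is a description of the sequence, and no binding was measured. The inhibitors with a match differed in level, with LPS means of 99.0 and 4.17 scaled TPM for Socs3 and Cish, and neither passed the adjusted limit.

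In order of their untreated means, the deposited values ran from Stat6 over Socs3, Jak1, Stat5b, Stat3, Stat2, Stat5a and Stat4 to Cish, and only Jak1 and Stat5b did not overlap among neighbours in this order. After LPS the order was Socs3, Stat6, Jak1, Stat5a, Stat5b, Stat3, Stat2, Cish and Stat4, with gaps after Jak1, Stat2 and Cish alone. Stat5a moved from the 80.3rd to the 92.4th percentile of protein-coding genes, whereas Stat5b stayed at the 90.5th and 90.6th. If the values are TPM they are per length, but the averaging over a variable number of transcripts (5 to 46 annotated for these genes) means that this order is one of deposited values and not of molecules. The spread between untreated samples (SD of log2 values) was larger than that between LPS samples for 6 of the 9 genes, beside 79.5% of the 9403 genes with a mean of at least 1. The median SD was 0.702 without and 0.343 with LPS for the 9 genes, and 0.787 and 0.316 for those 9403 genes.

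Among 2851 protein-coding genes with a mean of at least 5, the patterns most like that of Socs3 over the 6 samples were those of Zfyve1 (Pearson r of log2 values = 0.986), Adgre5 (0.985) and Rassf3 (0.982). Adgre5 was at 7.02, 26.2 and 12.7 scaled TPM without LPS and 17.5, 49.3 and 25.0 with it, again highest in replicate 2 of each group. For Cish they were Orai2 (0.989), Lpcat2 (0.983) and Smg1 (0.983), and Lpcat2 was likewise at its lowest and highest in replicate 2, at 4.20 without and 77.3 with LPS. These correlations describe 6 libraries that share their replicate numbers and scaling.

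The rest of the pathway was represented by 148 genes, of which 99 were in the table and tested. By the limits of the study 8 were higher and 1 lower after LPS, beside 1.69% and 1.31% of all genes, and at the adjusted limit 4 were higher and 0 lower, beside 0.894% and 0.946%. The median log2 fold change was 0.62, beside 0.013 for all genes tested and 0.37 for protein-coding genes with a mean of at least 1. At an unadjusted limma p under 0.05, 30 were higher and 4 lower, beside 10.3% and 6.66% of all genes. The 8 higher genes became 5 without LPS replicate 1 or 3 and 4 with the protein-coding genes at a common total, and the 1 lower gene was not called without untreated or LPS replicate 2. With only the 9403 genes with a mean of at least 1 fitted, 406 were higher and 308 lower by the limits of the study. Of the pathway genes, 9 and 1 were among them. Among the 22 ligands, 3 rose and 1 fell by the limits of the study, which 1.69% and 1.31% of all genes passed, with a median of 0.71. The cytokine gene Il10 rose by 4.72 ± 1.24 (SE) on the log2 scale, from 1.15, 24.2 and 32.1 to 230, 971 and 147 scaled TPM. Csf3, which encodes G-CSF, rose by 3.68 ± 0.44 and Il6 by 2.61 ± 0.59, both from under 1 scaled TPM in each untreated sample. Il2, which encodes a T cell growth factor, fell by 2.09 ± 0.37, from 10.4, 14.1 and 11.8 to 3.24, 1.06 and 2.26. Of these 4 ligands only Csf3 passed the adjusted limit in limma, at 0.0232.

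Among the kinases, receptors, inhibitors and adaptors tested, 0 genes passed the limits of the study or the adjusted limit in limma. Only 20 of 37 listed receptors, 11 of 18 inhibitors and 5 of 8 cofactors and adaptors were in the table. Genes absent from it, among them Jak2, Il6st, Csf2ra, Csf2rb and Socs1, could not be tested. Of the kinases beside Jak1, Tyk2 had a log2 fold change of 1.90 (1.13 to 5.74 scaled TPM against 9.09 to 20.8, a limma p of 0.0122, adjusted p = 0.143) and Jak3 of 0.60 with overlapping groups. The 20 receptors had a median of 0.022, with 4 higher and 1 lower at an unadjusted p under 0.05, a limit that 10.3% and 6.66% of all genes passed. The kinase and receptor genes named here and the component genes that follow were named after their values were seen. Il4ra, the receptor chain through which IL-4 reaches STAT6, had a log2 fold change of 2.21 (a limma p of 0.0185, adjusted p = 0.177), Csf3r, the G-CSF receptor, of -0.97 (a limma p of 0.0468, adjusted p = 0.284), and Il6ra of -1.58 with overlapping groups. The 11 other inhibitors had a median of 0.56, with 2 higher and 1 lower at that limit. Socs2, the closest relative of Cish, was at 0.793, 0.457 and 1.33 scaled TPM without and 0.688, 0.415 and 1.41 with LPS, and its log2 fold change was -0.03. Usp18, a brake on interferon receptors, had a log2 fold change of 1.45 (limma, adjusted p = 0.110) and Socs7 of -1.002 (adjusted p = 0.138). The 5 cofactors and adaptors had a median of 0.14, with 0 higher and 1 lower at the same limit, and that gene, Stam, a signal adaptor, had a log2 fold change of -1.46 (limma, adjusted p = 0.0719).

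Targets were listed by the STAT they are known for, here STAT3, STAT5 and STAT6. Of those listed, 13 of 19, 7 of 12 and 9 of 11 were in the table. Pim1, Pim2, Bcl6, Cdkn1a and Myc of the STAT5 list were absent and could not be tested. Of 13 STAT3 targets 4 were higher and 0 lower by the limits of the study, beside 1.69% and 1.31% of all genes, with a median of 2.21. Besides Il10 these were Icam1, an adhesion molecule gene (log2 fold change 4.20 ± 0.31), Nfil3, a transcription factor gene (3.16 ± 0.35), and Junb, an AP-1 subunit gene (2.53 ± 0.37). All 3 passed the adjusted limit in limma, while Fos was the only target on the other side of 0, at -0.98 with overlapping groups. Icam1 was at 16.3 to 24.9 scaled TPM in untreated and 336 to 467 in LPS samples, so these groups lay further apart than those of Stat5a. Icam1 is also a known target of NF-κB, and which factor lay behind the change of any listed target was not tested. Of 7 STAT5 targets 0 were called and 2 were higher at an unadjusted limma p under 0.05, beside 10.3% of all genes, with a median of 0.85. These were Ccnd2 (2.11), whose groups overlapped at 0.0967 to 7.24 and 5.89 to 12.5 scaled TPM, and Bcl2l1 (2.05), whose groups did not. Of 9 STAT6 targets 0 were called, 1 (Il4ra) was higher at an unadjusted limma p under 0.05, beside 10.3% of all genes, and the median was 0.035.

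**Figure D4:**
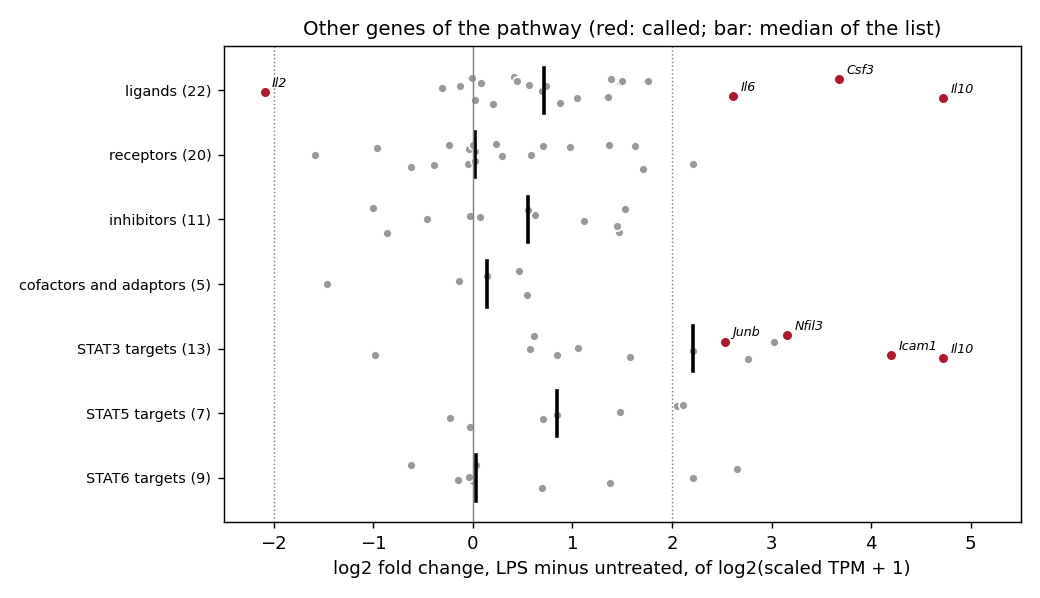
Log2 fold change (LPS minus untreated, of log2(scaled TPM + 1)) of other genes of the pathway, a row for each of 7 lists with its number of genes tested, where points are genes, red and named points pass a limma p under 0.01 and a log2 fold change beyond 2 (dotted), and black bars are list medians. The 6 higher genes shown are ligands or STAT3 targets, with Il10 in both lists, and Il2 at -2.09 is the only lower gene.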

How the data were processed

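RNA of 3 untreated and 3 LPS samples, grouped by their titles, was compared. The deposited values, titled as normalized counts, were taken as TPM from their digits and not from a statement of the authors: the authors used fastp, STAR and kallisto per the labels, and the methods of the study name GRCm39 and edgeR normalization, while the labels also list mm10. Versions and annotation release are not given in the sources used here. In the third untreated sample, the only one checked this way, 88.6% of 1335 long decimals became short when multiplied by a small whole number, as averaging over transcripts leaves, against 2.5% of slightly shifted values. TPM keeps no depth, so counting error is unknown and no count test was run. The labels and the study name different sequencers.

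Gene types and positions came from GENCODE M39, by name for 35599 genes and by identifier for 983. With 15690 genes removed that were 0 throughout, limma 3.58.1 in R 4.3.3 (lmFit, eBayes with trend, two-sided) was fitted to log2(value + 1) of 23049 genes without covariates, with Benjamini-Hochberg adjustment over all of them. The step was tested on simulated data. Alternatives were pseudocounts of 0.1 and 5, a mean of at least 1, protein-coding genes alone, scaling to the protein-coding total, centring on the coding median, quantile normalization, no trend, a replicate block and leaving out each sample (6 fits). Some items of the pathway lists are not reported here but are counted in their total. The 9 genes and all lists were chosen with earlier results of these data known. Named genes are the 9, per list at most 4 called genes and the largest change the other way, and the 3 genes most like Socs3 and Cish. Other genes of the lists, which were not called, were named after their values were seen. Shared 31-base words were counted over GENCODE transcripts on both strands, and promoters were read from RefSeq. Tables and plots were made in Python 3.11.15 (scipy 1.17.1, pandas 2.3.3; matplotlib 3.10.9).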

Additional observations from a re-analysis of the deposited data

How the results depend on the processing

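Over 15 alternatives, the log2 fold changes of Stat5a, Jak1, Socs3 and Cish stayed above 0, at 1.40 to 2.22, 0.36 to 1.07, 0.95 to 2.29 and 0.45 to 1.46. Stat5a passed the limits of the study with a pseudocount of 0.1 (1 of the 9 genes in place of 0) and in 4 of the 6 fits without a sample (0 to 1 genes). At the adjusted limit the count of 1 higher gene went to 0 with the protein-coding total (Stat5a at 1.56) and to 0 in all 6 fits without a sample (Stat5a at 1.83 to 2.10). With the replicate block it was 0 as well (Stat5a at 1.99, limma, adjusted p = 0.129), and over all genes that fit called 1 higher and 15 lower in place of 206 and 218. Samples with the same number correlated at 0.0935, 0.199 and 0.0835 in their deviations from the group means, each best with its own number, which hints at pairing that the labels do not state, and Socs3 had an unadjusted p of 0.00514 (adjusted 0.152) in that fit. Of the other pathway genes, the 8 higher became 4 with the protein-coding total and 5 to 10 without a sample (5 without LPS replicate 1 or 3), and the 1 lower became 0 with a pseudocount of 5 and 0 to 2 without a sample (0 without untreated or LPS replicate 2). Directions that turned were those of Stat2 (-0.29 with the protein-coding total, -0.18 centred, -0.24 to 0.44 without a sample), Stat3 (-0.45 to 0.16 without a sample), Stat4 (0.13 with a pseudocount of 0.1, -0.98 to 0.44 without a sample), Stat5b (-0.17 with the protein-coding total, -0.039 centred) and Stat6 (-0.37 with the protein-coding total, -0.21 centred, -0.40 to 0.76 without a sample), none past a limit. The cause of these changes was not tested. Depth is unknown, and with 3 samples per group even the narrowest 95% interval among the 9 genes, that of Stat5a, ran from 1.25 to 2.74.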
